A study of Mus musculus with 44 samples.

Results

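Ccr1, Ccr2, Ccr7, Ccrl2, Cx3cr1 and Cxcr4 are chemokine receptor genes of macrophages, and their messenger RNA was followed here through 22 groups of cultured mouse bone marrow-derived macrophages (BMDMs). The genes were taken by name: in each of the 4 count tables of the series, the line whose annotation opens with the symbol was used, which gave 6 genes of 24940 listed. Every group held 2 libraries, 44 in all. Whether the libraries of 2 groups overlap is given below as description only. The share of all genes without overlap was not counted. In the NCoR, RGFP966 and TBK1i tables all 6 genes entered the test. In the Pgc1b table, 5 did, because Ccr7 was filtered out there for low counts. Ccr7 passed the filter elsewhere only through the groups in which it is high, so Ccr7 is described by its counts and levels. It is left out of the counts of receptors called, except where the text says that it is included.

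Chemokine receptors are membrane-spanning receptors that couple to inhibitory G proteins and steer cells along gradients of chemokines. Ccr1 binds inflammatory CC chemokines such as Ccl3 and Ccl5, Ccr2 binds Ccl2 and brings monocytes out of the bone marrow, and Cx3cr1 binds the membrane-anchored chemokine fractalkine (Cx3cl1). Cxcr4 binds Cxcl12 and holds leukocytes in the marrow, Ccr7 binds Ccl19 and Ccl21 and guides cells to lymph nodes, and Ccrl2 is an atypical receptor that binds the attractant chemerin (Rarres2) without G protein signalling.

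The macrophages were grown from the bone marrow of young adult C57BL/6 mice, serum-starved and treated. In the NCoR table, cells with the genotype NCoR flox/flox, which keep the corepressor, are called WT, and cells with the genotype NCoR flox/flox, LysMCre are called NKO. LysM-Cre, carried in the macrophage gene Lyz2, recombines floxed genes in myeloid cells, and a share of cells can escape it. Both genotypes received vehicle (Veh), the TLR4 agonist Kdo2 lipid A (KLA), poly I:C (PolyIC, a viral RNA mimic that activates TLR3), IFNβ (IFNb) or IL4 for 6 h, or the osteoclast factor RANKL for 12 h. Cells labelled Wild type received vehicle, KLA or KLA with RGFP966, an inhibitor of the NCoR partner HDAC3, in the RGFP966 table. In the TBK1i table they received DMSO with vehicle, DMSO with KLA, or KLA with TBK1i, an inhibitor of the kinase TBK1. In the Pgc1b table, cells of genotype Pgc1b flox/flox without or with LysMCre received vehicle or KLA, all labelled 6 h. The sources do not say whether the 2 libraries of a group came from separate mice, so p-values measure only the spread between these libraries, which may be technical.

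Ncor1, the deleted gene, was 2.67- to 3.43-fold lower in NKO than in WT cells under all 6 conditions. Ppargc1b, the gene targeted in the Pgc1b table, was not lower in the Cre libraries. Its level was 6.78 to 7.80 CPM (counts scaled to one common library size by edgeR's TMM method) in the Pgc1b flox KLA libraries and 8.73 to 10.3 CPM with Cre, and counting over all exons need not show an exon deletion. The libraries held 8323493 to 16783155 gene counts each, and the 8 macrophage markers together stood at 9542 to 24012 CPM. The dates in the library names set the KLA groups and the RANKL groups apart from the other NCoR groups, and the RANKL libraries alone had high sums of neutrophil markers. In bulk RNA, fewer cells that express a receptor and less receptor RNA per cell cannot be told apart.

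In the mm10 coordinates of the tables, 4 of the genes lie on chromosome 9: Ccrl2 at chr9:111054834-111057270 and Ccr1 at chr9:123962126-123968692 on the minus strand, Cx3cr1 at chr9:120048683-120068296 on the minus strand, and Ccr2 at chr9:124102183-124109140 on the plus strand. Cxcr4 lies at chr1:128588199-128592299 and Ccr7 at chr11:99144199-99155077, both on the minus strand. Reads over exons were counted on a transcript of 1810 (Cxcr4) to 3749 (Cx3cr1) bases. Ccr1 and Ccr2 lie in a cluster of close relatives, among them Ccr3 and Ccr1l1, so reads shared by such copies could have been split or dropped.

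RefSeq promoter sequences of GRCm38.p6, the assembly behind mm10, matched 5 of the 6 genes. The 250 bases before the start are printed for Ccrl2 and Cxcr4, whose RNA moved furthest with KLA among these 5, and for Ccr2, which held the only motif found. Each is written 5′ to 3′ on the strand of the gene, and the capitals mark that motif.
Ccr2 promoter, chr9:124101933-124102182, plus strand: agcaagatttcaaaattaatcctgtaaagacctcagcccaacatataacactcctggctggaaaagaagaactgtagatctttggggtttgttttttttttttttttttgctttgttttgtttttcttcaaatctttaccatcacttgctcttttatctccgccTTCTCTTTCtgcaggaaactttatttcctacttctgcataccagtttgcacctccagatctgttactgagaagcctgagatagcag
Ccrl2 promoter, chr9:111057271-111057520, minus strand: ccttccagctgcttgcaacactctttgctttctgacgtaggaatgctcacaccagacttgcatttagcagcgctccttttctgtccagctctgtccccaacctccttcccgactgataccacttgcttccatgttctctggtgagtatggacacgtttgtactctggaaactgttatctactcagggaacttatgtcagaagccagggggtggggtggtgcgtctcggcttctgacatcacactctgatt
Cxcr4 promoter, chr1:128592300-128592549, minus strand: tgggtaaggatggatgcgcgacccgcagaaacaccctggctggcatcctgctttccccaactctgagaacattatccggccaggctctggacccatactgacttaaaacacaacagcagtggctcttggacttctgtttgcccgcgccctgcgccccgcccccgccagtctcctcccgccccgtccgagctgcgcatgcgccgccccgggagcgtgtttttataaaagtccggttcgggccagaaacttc
The letters searched on both strands of all 5 promoters were GGNNTTTCC for NF-kB, TGANTCA for AP-1, GAGGAAGT for PU.1 and GAAANNGAA for the interferon-stimulated response element. Only the last was found, on the minus strand of the Ccr2 promoter at bases -86 to -78 from the start. Over 27025 RefSeq promoters of this length, 4.84% held the NF-kB letters, 6.87% the AP-1 letters, 2.44% the PU.1 letters and 7.16% the interferon element. A missing match says only that these letters are not in the window.

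Under vehicle, Cxcr4 was the most abundant of the 6 receptors when levels were set per kilobase of transcript. In WT vehicle cells Cxcr4 stood at 126 ± 2.89 RPKM (CPM per kilobase of transcript, SD, n = 2), Ccrl2 at 28.2 ± 2.22, Ccr1 at 7.24 ± 2.36, Cx3cr1 at 5.68 ± 1.08 and Ccr2 at 4.10 ± 0.918 RPKM. Ccr7 had 0 and 1 counts in these libraries. Cxcr4 also led in the vehicle groups of the other tables, at 69.4 RPKM in the RGFP966 table, 39.9 RPKM in the Pgc1b table and 155 RPKM in the TBK1i table. The receptor in the next place varied: it was Ccr1 in the RGFP966 and Pgc1b tables, at 18.3 and 30.6 RPKM, and Ccrl2 in the TBK1i table, at 29.4 RPKM. The tables were scaled separately, so levels are ordered only within a table. From here on, levels are CPM scaled by the TMM method.

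**Figure D1:**
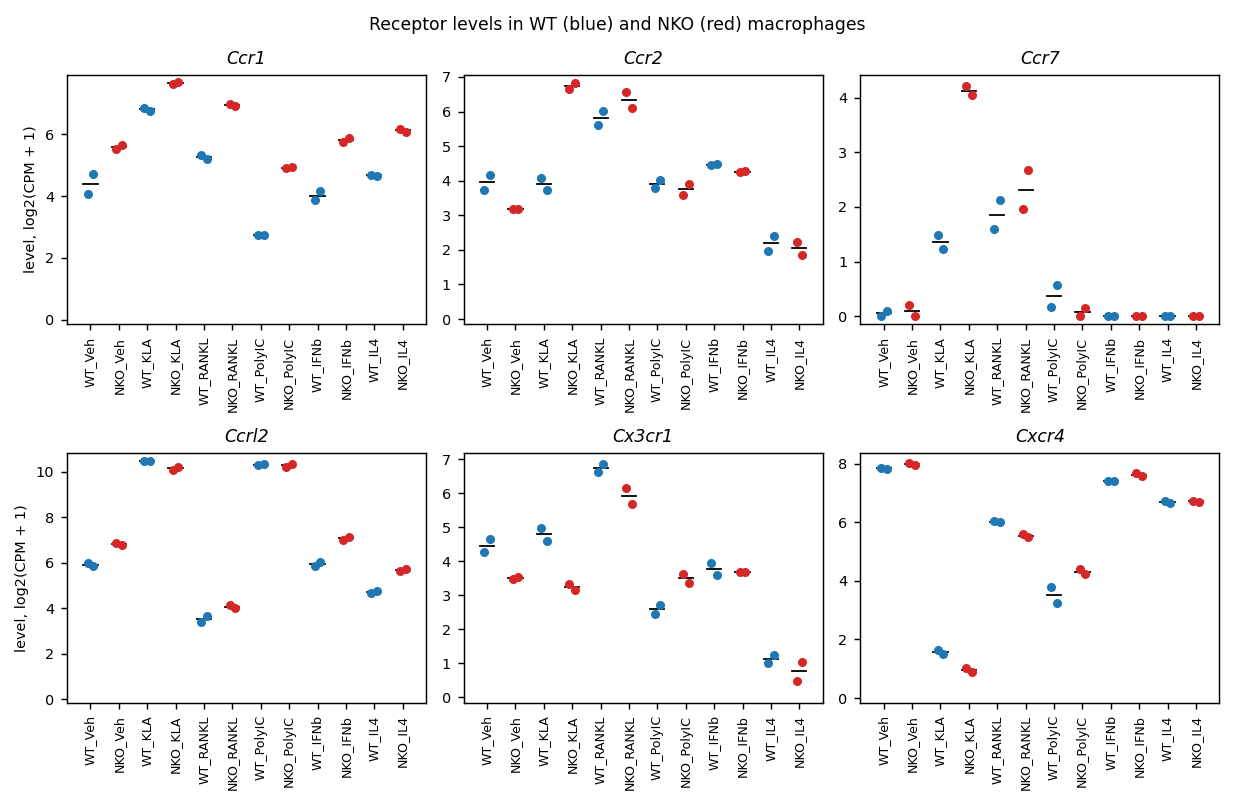
Levels of the 6 receptors in the 12 groups of the NCoR table, as log2(CPM + 1) on the vertical axis, with a point for each of the 2 libraries and a black line at their mean. Ccrl2 is highest under KLA and poly I:C, Cxcr4 is lowest there, and the Ccr1 points of the NKO groups lie above those of the WT groups under every treatment.

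Across the 12 NCoR groups each receptor had its own order. Ccr1 ran from 200.4 CPM in NKO KLA cells to 5.68 CPM in WT PolyIC cells (group means), and of the 11 neighbouring pairs in that order only WT IL4 with WT Veh, and WT Veh with WT IFNb, had overlapping libraries. Ccr2 ran from 106 CPM in NKO KLA to 3.16 CPM in NKO IL4, and 4 neighbouring pairs overlapped, among them WT Veh, WT KLA and both PolyIC groups in a chain. Cx3cr1 ran from 108 CPM in WT RANKL to 0.736 CPM in NKO IL4, again with 4 overlapping pairs. Ccrl2 ran from 1408 CPM in WT KLA to 10.5 CPM in WT RANKL, with overlap between the PolyIC groups and between WT IFNb and WT Veh. Cxcr4 ran from 251 CPM in NKO Veh to 0.944 CPM in NKO KLA, and only the IL4 groups overlapped. Ccr7 was near 0 in most groups, and 8 of its 11 neighbouring pairs overlapped. The plot of levels in the NCoR table shows these orders.

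KLA, which stands in for bacterial lipopolysaccharide, raised Ccrl2 and all but removed Cxcr4 in each of the 4 tables. Ccr1 rose as well, by 1.50- to 5.42-fold, and Ccr7 appeared at a low level. Ccr2 fell in 3 of the 4 tables and Cx3cr1 in 2. A gene is called here when the adjusted p of edgeR's quasi-likelihood test (Benjamini-Hochberg over all genes of the table) is below 0.05 and the fold change is above 1.5.

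Ccrl2, the chemerin-binding receptor, went from 62.6 and 56.0 CPM in WT Veh to 1402 and 1413 CPM in WT KLA. It went from 16.1 and 15.6 to 459 and 462 CPM in the RGFP966 table, from 11.03 and 12.9 to 520.4 and 490.1 CPM in the Pgc1b flox cells, and from 62.9 and 60.9 to 1523 and 1554 CPM in the TBK1i table. No KLA library came near a vehicle library. The log2 fold changes were 4.57 ± 0.07 (SE, 23.7-fold, adjusted p = 7.1e-51), 4.86 ± 0.07 (28.99-fold, adjusted p = 1.84e-68), 5.39 ± 0.10 (41.9-fold, adjusted p = 9.18e-33) and 4.63 ± 0.05 (24.8-fold). Ccrl2 is thus counted among the rises in all 4 tables.

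Cxcr4, the Cxcl12 receptor, went the other way. Its libraries stood at 232 and 225 CPM in WT Veh and at 2.13 and 1.83 CPM in WT KLA, at 126 and 125 against 1.62 and 1.65 CPM in the RGFP966 table, at 71.7 and 72.8 against 0.416 and 1.51 CPM in the Pgc1b flox cells, and at 278 and 284 against 2.10 and 1.85 CPM in the TBK1i table. KLA and vehicle libraries were far apart in every table. The fold changes were 115-, 76.4-, 78.4- and 141-fold lower, with log2 values of -6.84 ± 0.13 (adjusted p = 8.36e-48), -6.26 ± 0.14 (adjusted p = 6.36e-57), -6.29 ± 0.25 (adjusted p = 1.64e-20) and -7.14 ± 0.11.

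Ccr1, the receptor for Ccl3 and Ccl5, rose from 15.7 and 25.2 to 114 and 108 CPM in the NCoR table (log2 2.44 ± 0.12, 5.42-fold, adjusted p = 1.16e-14). It rose from 52.8 and 50.5 to 92.7 and 93.9 CPM in the RGFP966 table (0.85 ± 0.07, 1.81-fold, adjusted p = 3.57e-19), from 89.0 and 84.2 to 123 and 137 CPM in the Pgc1b flox cells (0.59 ± 0.09, 1.50-fold, adjusted p = 2.37e-07) and from 23.8 and 21.5 to 43.2 and 40.5 CPM in the TBK1i table (0.89 ± 0.10, 1.85-fold, adjusted p = 2.22e-18). The libraries did not overlap in any table. The smaller rises depend on the scaling. With total gene counts in place of TMM, an alternative chosen after seeing the data, the log2 changes of Ccr1 in the last 3 tables were 0.09, -0.11 and 0.11 and none was called, while the rise in the NCoR table stayed at 1.71 and called. The Pgc1b rise sat at the fold threshold: it was not called without Pgc1b flox Veh replicate 2 (0.55) or without Pgc1b flox KLA replicate 2 (0.50).

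Ccr2, the Ccl2 receptor, showed no clear change in the NCoR table, where 12.4 and 17.03 CPM in WT Veh overlapped with 15.9 and 12.3 CPM in WT KLA (log2 -0.06 ± 0.29, adjusted p = 0.866). In the other tables it fell, from 6.09 and 7.19 to 3.82 and 3.79 CPM (-0.80 ± 0.21, adjusted p = 0.000334), from 14.8 and 12.9 to 7.28 and 4.27 CPM (-1.23 ± 0.24, adjusted p = 2.8e-05) and from 16.5 and 16.4 to 7.29 and 8.44 CPM (-1.06 ± 0.17, adjusted p = 4.96e-10), with no overlap. With total gene counts the NCoR difference was also called lower (-0.79). Cx3cr1, the fractalkine receptor, fell in the RGFP966 table from 8.81 and 10.4 to 1.24 and 3.13 CPM (-2.09 ± 0.24, 4.26-fold, adjusted p = 9.7e-13) and in the TBK1i table from 35.6 and 42.9 to 17.3 and 26.02 CPM (-0.86 ± 0.11, 1.82-fold, adjusted p = 9.95e-16). It lost the call in the TBK1i table without DMSO KLA replicate 1 (-0.58). In the NCoR table, 18.4 and 24.1 CPM stood against 30.6 and 23.3 CPM, and in the Pgc1b flox cells 18.1 and 13.4 against 15.2 and 20.1 CPM. Neither difference was called (0.34 ± 0.21 and 0.16 ± 0.21), and their direction depends on the scaling. Scaled by total gene counts, the group means of Cx3cr1 went from 25.4 to 19.5 CPM in the NCoR table and from 19.4 to 13.4 CPM in the Pgc1b flox cells.

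Ccr7, the lymph node homing receptor, had 0 and 1 counts in WT Veh and no counts in the other tables' vehicle libraries. With KLA it had 11 and 8 counts in the NCoR table, 16 and 19 in the RGFP966 table, 13 and 8 in the Pgc1b flox cells and 10 and 13 in the TBK1i table, or 1.00 to 1.80 CPM. Set against a floor of 3 counts per vehicle library, the mean Ccr7 level with KLA was 7.62-fold higher in the NCoR table, 10.5-fold in the RGFP966 table and 7.08-fold in the TBK1i table. These ratios allow for counting error in the vehicle libraries only and take the few KLA counts as exact. It was not tested in the Pgc1b table.

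**Figure D2:**
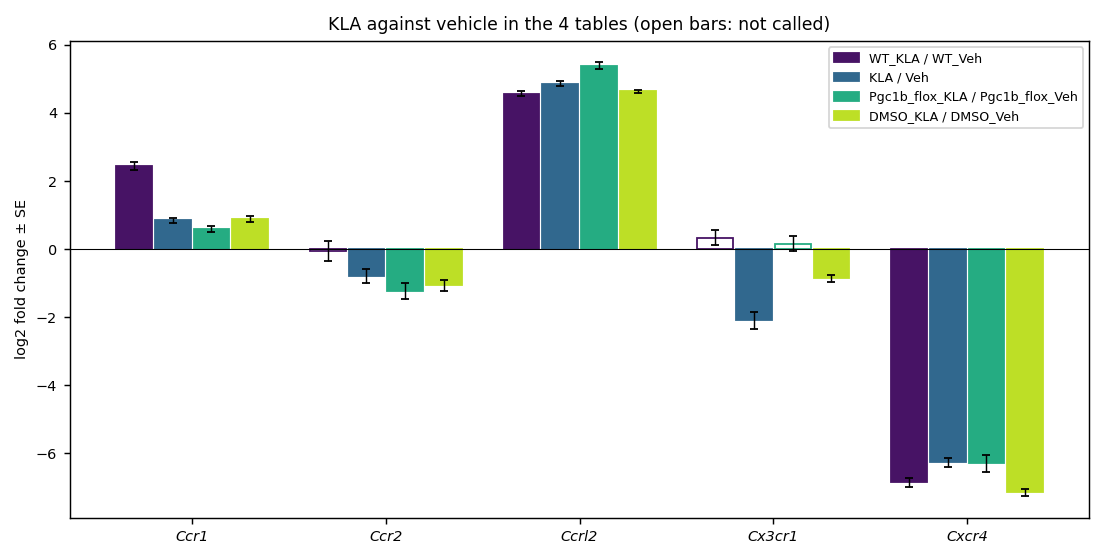
Log2 fold change of KLA against vehicle (vertical axis) for 5 receptors in the 4 tables, with error bars of 1 SE and filled bars where the change was called. Ccrl2 lies between 4.57 and 5.39 and Cxcr4 between -7.14 and -6.26, while Ccr1 lies between 0.59 and 2.44. Ccr7 is left out because its vehicle libraries were at or under the floor.

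Calls were common after KLA, so the counts of receptors say little by themselves. Without Ccr7, 2 of 5 receptors were higher and 1 lower in the NCoR table, where 25.4% of all 13407 genes tested were called higher and 32.3% lower. In the RGFP966 table, 2 were higher and 3 lower, against 27.9% and 32.2%. In the Pgc1b flox cells 2 were higher and 2 lower, against 22.8% and 25.7%, and in the TBK1i table, 2 were higher and 3 lower, against 29.6% and 29.3%. Of the called genes, 44% were higher in the NCoR table with TMM and 20.1% with total gene counts. The same step took the share from 46.4% to 20.4% in the RGFP966 table, from 47.1% to 18.6% in the Pgc1b flox cells and from 50.2% to 20.8% in the TBK1i table, and shifted the median gene by -0.73, -0.77, -0.69 and -0.78. The Ccrl2 rise and the Cxcr4 fall were called under both scalings. WT KLA libraries carry a name date 115 days before that of the WT Veh libraries, which cannot be told apart from KLA in that table, while KLA and vehicle share a date in the other 3 tables. Stromal and endothelial markers summed to 6.38 to 6.66 CPM in WT KLA against 89.1 to 98.3 CPM in WT Veh, with the collagen genes Col1a1, Col1a2 and Col3a1 called lower and the endothelial genes Pecam1 and Cdh5 called higher. The part of these markers in the receptor differences was not tested.

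Poly I:C, a TLR3 ligand, raised Ccrl2 and lowered Cxcr4 in WT cells, and Ccr1 and Cx3cr1 fell with it. Ccrl2 reached 1262 and 1269 CPM (log2 4.41 ± 0.07, 21.3-fold, adjusted p = 4.7e-50) and Cxcr4 dropped to 12.7 and 8.53 CPM (-4.42 ± 0.09, 21.4-fold, adjusted p = 1.02e-46). Ccr1 dropped to 5.71 and 5.65 CPM, below both vehicle libraries (-1.85 ± 0.21, 3.60-fold, adjusted p = 5.1e-08). Cx3cr1 dropped to 4.52 and 5.65 CPM (-2.06 ± 0.28, 4.18-fold, adjusted p = 5.79e-06). Ccr2, at 12.7 and 15.1 CPM, lay within the range of the vehicle libraries (-0.08 ± 0.27, adjusted p = 0.818), although total gene counts gave a called fall (-0.72). Ccr7 had 1 and 4 counts. Thus 1 receptor was called higher and 3 lower, against 22.2% and 25% of all genes, and the share of called genes that were higher fell from 47% with TMM to 20.3% with total gene counts, which shifted the median gene by -0.64. Ccr1 stood at opposite sides of vehicle with KLA and poly I:C. All the treatment contrasts of the NCoR table use the same 2 WT Veh libraries, and differences between treatments were not tested.

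IFNβ changed the receptors least. Cx3cr1 fell from 18.4 and 24.1 to 14.6 and 11.2 CPM (log2 -0.71 ± 0.20, 1.64-fold, adjusted p = 0.0154), the only call. That call was lost without WT Veh replicate 2 (-0.51, adjusted p = 0.114) or without WT IFNb replicate 2 (-0.54, adjusted p = 0.132). Ccr1, at 13.7 and 16.9 CPM, and Cxcr4, at 168 and 168 CPM, had log2 changes of -0.43 ± 0.15 and -0.44 ± 0.06, which are under the fold threshold. Without WT Veh replicate 1 the Ccr1 difference passed it (-0.73). Ccr2, at 20.9 and 21.1 CPM, and Ccrl2, at 56.3 and 64.6 CPM, did not pass the test. No receptor was called higher and 1 was called lower, where 4.09% and 2.37% of genes were called. Of all 6 receptors, Ccr7 included, 4 had an unadjusted p below 0.05, and DESeq2 called 1. The higher share of called genes went from 63.3% to 44% with total gene counts.

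IL4, a cytokine of wound repair, lowered 4 receptors and raised none. Cx3cr1 dropped to 1.02 and 1.38 CPM (log2 -4.13 ± 0.34, 17.5-fold, adjusted p = 3.9e-08) and Ccr2 to 2.91 and 4.303 CPM (-2.02 ± 0.32, 4.06-fold, adjusted p = 0.000187). Ccrl2 fell to 23.97 and 25.5 CPM (-1.26 ± 0.08, 2.40-fold, adjusted p = 1.64e-19) and Cxcr4 to 104 and 99.3 CPM (-1.17 ± 0.06, 2.25-fold, adjusted p = 1.93e-25). All 8 of these IL4 values lay below every WT Veh value of the same gene. Ccr1, at 24.9 and 23.97 CPM, lay within the vehicle range (0.26 ± 0.14, adjusted p = 0.179), and without WT Veh replicate 2 it was called higher (0.63). The 4 falls stand against 6.46% of genes called lower, and 6.63% of genes were called higher.

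RANKL, given for 12 h, went with the highest Cx3cr1 level of the NCoR table. Cx3cr1 stood at 99.1 and 117 CPM in WT RANKL (log2 2.34 ± 0.16, 5.06-fold, adjusted p = 1.06e-09) and Ccr2 at 48.1 and 63.9 CPM (1.93 ± 0.20, 3.80-fold, adjusted p = 6.24e-07). Ccr1 stood at 39.0 and 35.8 CPM (0.87 ± 0.13, 1.83-fold, adjusted p = 2.05e-06), a call that was lost without WT Veh replicate 1 (0.57). These 3 receptors lay above vehicle in both libraries. Ccr7 had 31 and 48 counts, with a mean level 13.1-fold above the floor of the vehicle libraries. Ccrl2 fell to 9.35 and 11.7 CPM (-2.50 ± 0.09, 5.64-fold, adjusted p = 5.16e-31) and Cxcr4 to 65.5 and 62.7 CPM (-1.83 ± 0.06, 3.56-fold, adjusted p = 1.06e-34). Without Ccr7, 3 receptors were called higher and 2 lower, against 24.1% and 19.8% of genes.

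The RANKL libraries differ from vehicle in more than RANKL. They were taken at 12 h against 6 h, and their name date is 536 days earlier, so agent, time and date cannot be told apart. Their library names call the cells osteoclast where the names of the other groups say BMDM, and the study's methods describe an osteoclast culture beside the macrophage culture, so a difference in culture cannot be told apart from RANKL either. Of the 8 macrophage markers, Adgre1, Csf1r, Cd68, Mertk and Fcgr1 were called lower in WT RANKL than in WT Veh and Lyz2 was called higher. All 6 neutrophil markers were above 1 CPM in them, with a sum of 808 to 926 CPM in WT and 1049 to 1058 CPM in NKO cells, while the sum stayed at 1.71 to 3.99 CPM in WT Veh. Stromal and endothelial markers summed to 198 to 224 CPM in WT RANKL against 89.1 to 98.3 CPM in WT Veh. The neutrophil receptor gene Cxcr2, not one of the 6, stood at 6.37 CPM in WT RANKL and 0.0686 CPM in WT Veh (group means). Of 7 osteoclast markers 5 were tested, and Acp5, Ocstamp and Dcstamp were called higher and Atp6v0d2 lower in WT RANKL (median log2 0.79). Their sum was 157 to 160 CPM in WT RANKL and 865 to 1053 CPM in WT Veh, where it was mostly Atp6v0d2 (66.6 against 899 CPM, group means), and the osteoclast genes Oscar and Calcr had at most 3 counts. The part of these other cell markers in the receptor differences was not tested.

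Ccr1 was higher in NKO than in WT cells under all 6 conditions. Ccrl2 was higher in NKO cells under 4, while Ccr2, Cx3cr1 and Cxcr4 went up or down depending on the treatment. Ccr7 had its highest counts in NKO KLA cells. Under KLA the genotypes also differ in name date and sex, as given with that contrast.

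**Figure D3:**
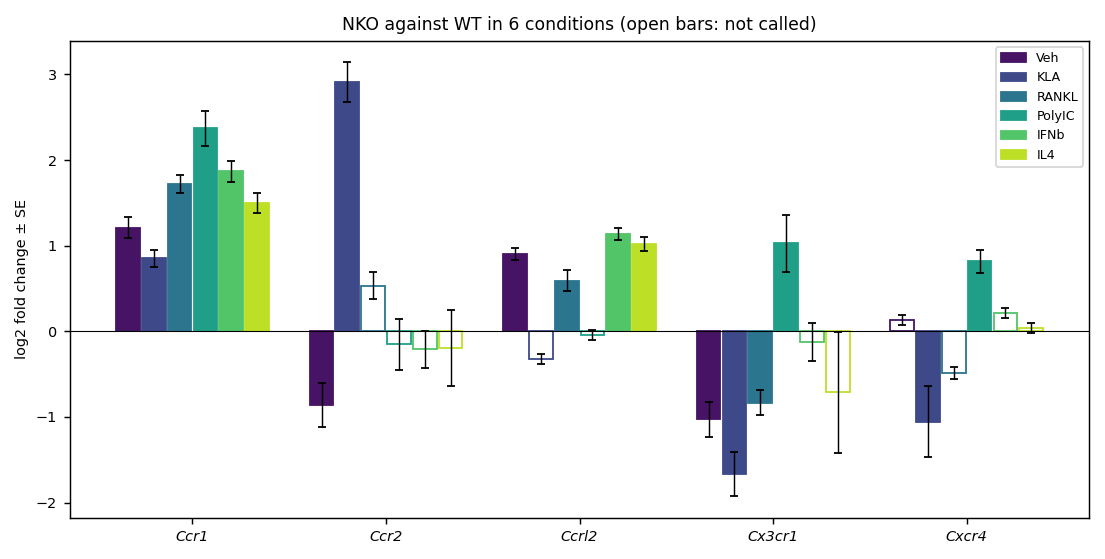
Log2 fold change of NKO against WT cells (vertical axis) for 5 receptors under the 6 conditions of the NCoR table. Error bars are 1 SE, and bars are filled where the change was called. Ccr1 lies above 0 throughout, from 0.85 under KLA to 2.37 under poly I:C, and Ccr2 stands apart under KLA at 2.91.

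Ccr1 stood at 15.7 and 25.2 CPM in WT Veh and at 45.0 and 49.6 CPM in NKO Veh (log2 1.21 ± 0.12, 2.32-fold, adjusted p = 6.64e-08). Under poly I:C it was 28.9 and 29.8 CPM in NKO cells (2.37 ± 0.21, 5.17-fold, adjusted p = 7.37e-09), under IFNβ 53.2 and 57.7 CPM (1.87 ± 0.13, 3.65-fold, adjusted p = 1.55e-10) and under IL4 71.5 and 66.5 CPM (1.50 ± 0.12, 2.82-fold, adjusted p = 1.7e-09). With RANKL it was 126 and 121 CPM (1.72 ± 0.10, 3.29-fold, adjusted p = 4.63e-12). The lower NKO library lay above the higher WT library under each of these treatments. None of the 75 alternatives run for Ccr1, over these contrasts and KLA, ended a call, and their values lay between 0.65 and 2.41. The contrasts under vehicle, poly I:C, IFNβ and IL4 each compare libraries of 1 name date, as does the contrast under RANKL.

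Ccrl2 was higher in NKO cells where it was not at its stimulated level. It stood at 114 and 108 CPM in NKO Veh against 62.6 and 56.0 CPM in WT Veh (log2 0.90 ± 0.07, 1.87-fold, adjusted p = 3.92e-16), at 126 and 139 CPM under IFNβ (1.13 ± 0.07, 2.19-fold, adjusted p = 8.39e-20) and at 48.4 and 52.0 CPM under IL4 (1.02 ± 0.08, 2.03-fold, adjusted p = 1.85e-14). Under poly I:C the NKO libraries, at 1190.0 and 1273 CPM, overlapped with WT (-0.04 ± 0.06, adjusted p = 0.713). With RANKL, 16.7 and 14.9 CPM stood above 9.35 and 11.7 CPM (0.59 ± 0.12, 1.51-fold, adjusted p = 7.47e-05). The RANKL call sat at the fold threshold and was lost without WT RANKL replicate 1 (0.43), without NKO RANKL replicate 1 (0.50), with only the RANKL groups in the fit (0.58) and with total gene counts (0.49).

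The monocyte receptors Ccr2 and Cx3cr1 were lower in NKO Veh cells. Ccr2 stood at 8.04 and 8.15 CPM against 12.4 and 17.03 CPM (log2 -0.86 ± 0.26, 1.81-fold, adjusted p = 0.0317), and the call was lost without WT Veh replicate 2 (-0.61, adjusted p = 0.247), NKO Veh replicate 1 (adjusted p = 0.122) or NKO Veh replicate 2 (adjusted p = 0.141). Cx3cr1 stood at 10.3 and 10.6 CPM against 18.4 and 24.1 CPM (-1.03 ± 0.21, 2.04-fold, adjusted p = 0.00182). The libraries of the genotypes did not overlap for either gene. Under RANKL, Cx3cr1 was again lower in NKO cells, at 70.3 and 50.3 CPM (-0.83 ± 0.15, 1.78-fold, adjusted p = 0.000277; 0.0865 with only the RANKL groups in the fit). Ccr2, at 93.6 and 67.8 CPM, was 1.45-fold higher there (0.53 ± 0.16, adjusted p = 0.021), under the fold threshold, and passed it without WT RANKL replicate 2 (0.75) or NKO RANKL replicate 2 (0.74). Under poly I:C the order of Cx3cr1 turned, with 11.4 and 9.33 CPM in NKO above 4.52 and 5.65 CPM in WT cells (1.03 ± 0.34, 2.04-fold, adjusted p = 0.0428). Leaving out any of these 4 libraries ended that call (adjusted p = 0.0757 to 0.244). Stromal and endothelial markers summed to 61.9 to 70.2 CPM in NKO PolyIC against 114 to 132 CPM in WT PolyIC, with 3 collagen genes called lower. The 8 macrophage markers summed to 11595 to 11842 CPM in NKO Veh against 17182 to 17612 CPM in WT Veh, with Adgre1, Lyz2 and Fcgr1 called lower. Lyz2, the gene that carries LysM-Cre, had the highest median of the 8 over all libraries (7087 CPM), so that sum cannot be read as a share of macrophages. The part of these markers in the receptor differences was not tested. Under IFNβ and IL4 neither gene passed the test: Ccr2 was at 17.9 and 18.6 CPM and at 3.69 and 2.62 CPM in NKO cells, and Cx3cr1 at 11.8 and 12.0 CPM and at 0.410 and 1.06 CPM.

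Outside KLA, Cxcr4 was called between the genotypes only under poly I:C. NKO libraries stood at 257 and 244 CPM under vehicle, at 202 and 188 CPM under IFNβ and at 105 and 103 CPM under IL4, with log2 differences of 0.13 ± 0.05, 0.22 ± 0.06 and 0.04 ± 0.06 and no call. Under poly I:C they stood at 20.0 and 17.6 CPM, above the WT libraries (0.82 ± 0.13, 1.76-fold, adjusted p = 2.06e-06), a call that was lost without WT PolyIC replicate 2 (0.56). Under RANKL 47.0 and 44.5 CPM lay below the WT libraries (-0.49 ± 0.07, 1.40-fold, adjusted p = 1.91e-07), under the fold threshold. Ccr7 had 32 and 53 counts in NKO RANKL, or 2.89 and 5.36 CPM against 2.03 and 3.35 CPM, and the genotypes overlapped. In the IFNβ and IL4 groups of both genotypes Ccr7 had no counts, which allows up to 3 counts per library.

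Set against all genes, the receptors counted as follows. In NKO Veh 2 were higher and 2 lower, where 2.4% of genes were called higher and 3.8% lower. With RANKL 2 were higher and 1 lower, against 6.21% and 6.99%, with poly I:C 3 higher and none lower, against 3.01% and 2.92%. With IFNβ 2 were higher and none lower, against 1.86% and 1.94%, and with IL4 2 were higher and none lower, against 1.9% and 2.33%. With Ccr7 included, DESeq2 called 4, 3, 3, 2 and 2 receptors in these 5 contrasts. The share of called genes that were higher moved with total gene counts from 47.1% to 33.2% under RANKL, from 49% to 34.8% under IFNβ and from 44.9% to 31.2% under IL4. No library enters more than 1 of these contrasts.

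Under KLA, NKO cells had the highest Ccr1, Ccr2 and Ccr7 levels of the table. Ccr2 stood at 15.9 and 12.3 CPM in WT KLA and at 100.5 and 112 CPM in NKO KLA (log2 2.91 ± 0.23, 7.52-fold, adjusted p = 4.51e-08). Ccr7 stood at 1.80 and 1.33 CPM against 17.6 and 15.5 CPM, from 11 and 8 against 205 and 163 counts. Ccr1 stood at 114 and 108 against 195 and 205 CPM (0.85 ± 0.10, 1.81-fold, adjusted p = 7.14e-08). The NKO libraries lay above the WT libraries for Ccr1, Ccr2 and Ccr7, a description without the share of all genes that did not overlap. Cx3cr1 was lower, at 9.02 and 7.90 against 30.6 and 23.3 CPM (-1.67 ± 0.25, 3.18-fold, adjusted p = 2.7e-05), and Cxcr4 was lower, at 1.03 and 0.857 against 2.13 and 1.83 CPM (-1.06 ± 0.41, 2.08-fold, adjusted p = 0.0248). The Cxcr4 call was lost without WT KLA replicate 1 (-0.94, adjusted p = 0.15), WT KLA replicate 2 (-1.16, adjusted p = 0.0548) or NKO KLA replicate 2 (-0.93, adjusted p = 0.0987). Ccrl2, at 1081 and 1167 against 1402 and 1413 CPM, was 1.25-fold lower, under the fold threshold (-0.33 ± 0.06, adjusted p = 1.96e-06). Without Ccr7, 2 receptors were higher and 2 lower, where 21% of genes were called higher and 19% lower.

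The NKO KLA libraries carry a name date 1401 days before the WT KLA libraries and 1516 days before the NKO Veh libraries. Y-linked transcripts were present in them and in none of the other NCoR libraries, so genotype, date and sex of the mice cannot be told apart in this contrast. Dendritic cell markers summed to 23.8 to 23.9 CPM in NKO KLA against 1.80 to 2.00 CPM in WT KLA, nearly all of it Clec9a. In both groups 1 of 6 markers was above 1 CPM, and Flt3 had 1 and 3 counts against 0 and 0. Of the 4 dendritic cell markers tested, Clec9a and Zbtb46 were called higher in NKO KLA, with Zbtb46 under 1 CPM on average in both groups. T and NK cell markers summed to 56.3 to 67.1 CPM against 17.8 to 18.5 CPM, nearly all of it Lck, while Cd3e, Cd3g and Ncr1 had no counts. Stromal and endothelial markers summed to 23.5 to 25.1 CPM against 6.38 to 6.66 CPM. Their part in the receptor differences was not tested.

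Because of the dates, NKO KLA was also set against the KLA controls of the other 3 tables in a joint fit of 12468 genes. Ccr2 was higher against each: log2 4.48 against KLA of the RGFP966 table, 4.19 against Pgc1b flox KLA and 3.70 against DMSO KLA. Ccr1 was higher against each as well, at 0.78 (adjusted p = 6.96e-13), 0.65 (adjusted p = 3.38e-10) and 2.20 (adjusted p = 1.88e-29). The direction of the other receptors changed with the control. Ccrl2 was 0.97 and 1.17 higher against the RGFP966 and Pgc1b tables and -0.51 against DMSO KLA, Cx3cr1 was 1.59 (adjusted p = 0.00239), -1.02 and -1.41, and Cxcr4 was -1.10 (adjusted p = 0.0129), 0.078 (adjusted p = 0.916) and -1.11. In these fits 21.4% of genes were called higher and 21.3% lower against the RGFP966 table, 17.6% and 17% against the Pgc1b table and 18.1% and 20.3% against the TBK1i table. Each control differs from NKO KLA in table and date. Y-linked transcripts, present in NKO KLA, were present in Pgc1b flox KLA and in neither of the other 2 added controls, and the 4 comparisons share the NKO KLA libraries. Ccr7 is listed with another transcript in the NCoR table and was not in the joint fit. In the KLA controls of the other tables it stood at 1.00 to 1.57 CPM.

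**Figure D4:**
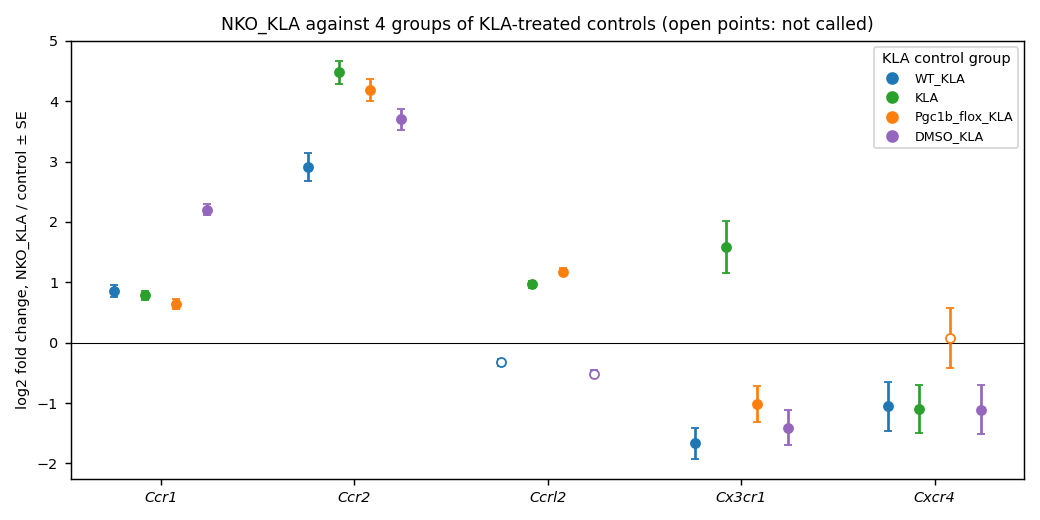
Log2 fold change of NKO KLA (vertical axis) against WT KLA of the same table and against the KLA controls of the other 3 tables, for 5 receptors. Error bars are 1 SE, and points are filled where the change was called. Ccr2 stays between 2.91 and 4.48 and Ccr1 between 0.65 and 2.20, while Ccrl2, Cx3cr1 and Cxcr4 fall on both sides of 0.

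Whether the genotype changed the response was tested as an interaction, the NKO minus WT difference under a ligand less that difference under vehicle. With KLA, Ccr2 gained 3.77 ± 0.35 on the log2 scale in NKO cells (adjusted p = 4.82e-07), Ccrl2 lost 1.23 (-1.23 ± 0.09, adjusted p = 1.23e-17) and Cxcr4 had -1.19 ± 0.42 (adjusted p = 0.0138). The Cxcr4 term was not called without WT KLA replicate 1 (adjusted p = 0.109) or NKO KLA replicate 2 (adjusted p = 0.0633). Without WT Veh replicate 2 the terms of Ccr1 (-0.73) and Cx3cr1 (-0.85) were called too. The 3 receptors called stand against 36.9% of all genes, and all of them carry the date limit above.

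With RANKL, Ccr2 had a term of 1.39 ± 0.31 (adjusted p = 0.00338) and Cxcr4 one of -0.62 ± 0.09 (adjusted p = 2.37e-07), 2 receptors where 14.2% of genes were called. These terms set RANKL against vehicle libraries, so agent, time, date and culture cannot be told apart in them. The Ccr2 term was not called with only these 4 groups in the fit (1.37, adjusted p = 0.089), and the Cxcr4 term fell under the fold threshold without NKO RANKL replicate 2 (-0.58). Ccr1 passed that threshold without WT Veh replicate 1 (0.80) and had 0.51 ± 0.16 with all libraries.

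Poly I:C gave the most receptor interactions against a low background: without Ccr7, 4 of 5 were called where 3.24% of genes were. Cx3cr1 had 2.05 ± 0.39 (adjusted p = 0.00279), Ccr1 1.16 ± 0.26 (adjusted p = 0.00427), Ccrl2 -0.94 ± 0.09 (adjusted p = 2.55e-11) and Cxcr4 0.69 ± 0.14 (adjusted p = 0.000539). Cx3cr1, Ccr1 and Cxcr4 kept more of their vehicle level under poly I:C in NKO than in WT cells, and Ccrl2 rose by less from a higher start. Cx3cr1 in NKO cells stood at 10.3 and 10.6 CPM under vehicle and at 11.4 and 9.33 CPM under poly I:C. The Ccr1 term was not called without WT PolyIC replicate 1 (adjusted p = 0.0514) or replicate 2 (adjusted p = 0.0558), nor with only the 4 groups in the fit (1.14, adjusted p = 0.0606). Without WT PolyIC replicate 2 the Cxcr4 term was 0.43 (adjusted p = 0.106). The share of called terms that were positive was 65.9% with TMM, 82.7% with total gene counts and 55.1% with DESeq2's size factors.

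With IFNβ and with IL4 edgeR called no receptor, against 0.604% of genes in each. With IFNβ 3 of all 6 receptors, Ccr7 included, had an unadjusted p below 0.05 and DESeq2 called 1. Ccr1, at 0.65 ± 0.18 (adjusted p = 0.0688), was called without WT Veh replicate 1 (0.95) or WT IFNb replicate 2 (0.81). Cx3cr1 was called without WT Veh replicate 1 (1.08). With IL4 none had an unadjusted p below 0.05 and DESeq2 called 0. The positive share of called IL4 terms went from 58% to 47.1% with total gene counts.

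RGFP966, the HDAC3 inhibitor, raised Ccr1 and Ccr2 in the presence of KLA and lowered Cxcr4. Ccr1 stood at 92.7 and 93.9 CPM with KLA and at 200.4 and 212 CPM with RGFP966 and KLA (log2 1.14 ± 0.07, 2.21-fold, adjusted p = 8.69e-27). Ccr2 stood at 3.82 and 3.79 against 12.2 and 14.5 CPM (1.81 ± 0.19, 3.50-fold, adjusted p = 3.56e-13). Both receptors were above their vehicle levels with the inhibitor. Cxcr4, already low at 1.62 and 1.65 CPM, stood at 0.810 and 0.600 CPM (-1.20 ± 0.39, 2.30-fold, adjusted p = 0.00667). Ccr7 went from 16 and 19 to 8 and 6 counts. The Cxcr4 fall rests on few counts, and its call was lost without RGFP966 KLA replicate 2 (-1.01, adjusted p = 0.0727). That replicate carries a name date 14 days after replicate 1, which shares its date with the KLA and Veh libraries.

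Ccrl2, at 389 and 385 CPM with RGFP966 against 459 and 462 CPM, was 1.19-fold lower, under the fold threshold (log2 -0.25 ± 0.06, adjusted p = 0.000101). Cx3cr1, at 2.80 and 2.40 CPM, lay within the range of the KLA libraries (0.21 ± 0.31, adjusted p = 0.599), and without KLA replicate 2 it was called higher (1.05, adjusted p = 0.0424). Without Ccr7, 2 receptors were called higher and 1 lower, against 15.8% and 9.54% of genes. Ccr1 and Ccr2 were thus higher under KLA both with the inhibitor and in the NKO libraries. These contrasts come from separate tables and were not tested against each other.

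Without Ccr7, TBK1i lowered 4 of 5 receptors in the presence of KLA and raised none. Ccr2 stood at 7.29 and 8.44 CPM with DMSO and KLA and at 0.701 and 0.564 CPM with TBK1i and KLA (log2 -3.60 ± 0.35, 12.2-fold, adjusted p = 2.32e-24). Cx3cr1 stood at 17.3 and 26.02 against 6.41 and 8.12 CPM (-1.58 ± 0.15, 2.99-fold, adjusted p = 7.5e-24), and Ccr1 at 43.2 and 40.5 against 15.4 and 17.2 CPM (-1.36 ± 0.12, 2.57-fold, adjusted p = 5.62e-31). These 3 receptors ended below their levels in DMSO Veh cells. Ccrl2 stood at 1523 and 1554 against 715 and 747 CPM (-1.07 ± 0.04, 2.10-fold, adjusted p = 1.98e-181), which is still far above the 62.9 and 60.9 CPM of DMSO Veh. Cxcr4 stayed low, at 2.20 and 2.71 against 2.10 and 1.85 CPM (0.30 ± 0.32, adjusted p = 0.435), and Ccr7 had 12 and 15 against 10 and 13 counts. Against the 4 falls, 18.3% of genes were called lower and 15% higher. Total gene counts moved the share of called genes that were higher from 45% to 73.6% and the median gene by 0.37, and the 4 falls were still called, at -0.99 for Ccr1, -3.24 for Ccr2, -0.71 for Ccrl2 and -1.21 for Cx3cr1. This contrast shares its DMSO KLA libraries with the KLA response of the same table.

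**Figure D5:**
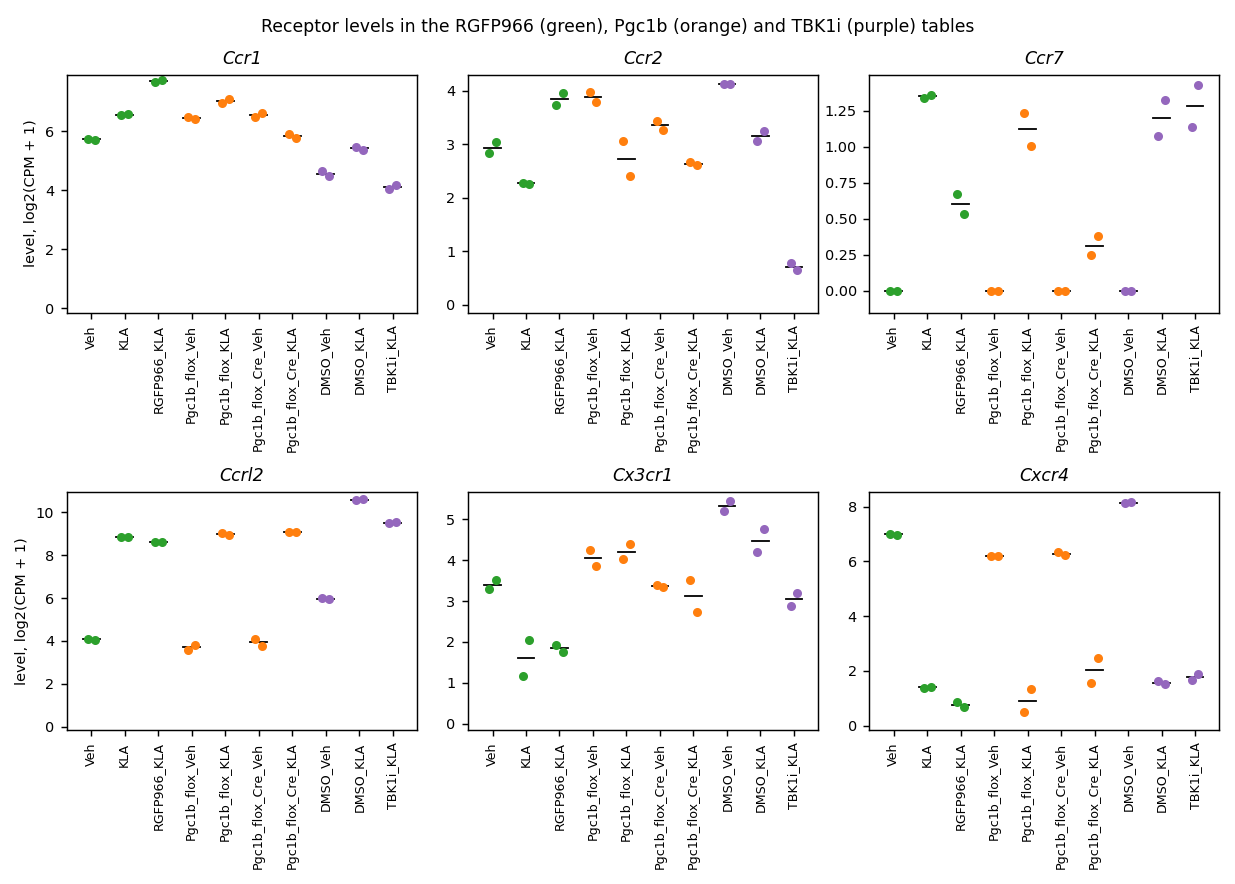
Levels of the 6 receptors in the groups of the RGFP966, Pgc1b and TBK1i tables, as log2(CPM + 1) on the vertical axis, with a point for each of the 2 libraries and a black line at their mean. RGFP966 lifts Ccr1 and Ccr2 above the KLA group, and TBK1i takes Ccr2 from 7.29 and 8.44 CPM to 0.701 and 0.564 CPM, while Ccrl2 stays high in every KLA group.

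Under KLA, 3 receptors were called between the Cre and flox libraries of the Pgc1b table. Ccr1 stood at 123 and 137 CPM in Pgc1b flox KLA and at 59.3 and 53.7 CPM in Pgc1b flox Cre KLA, below the vehicle libraries of both genotypes (log2 -1.20 ± 0.09, 2.30-fold, adjusted p = 1.2e-13). Cx3cr1 was lower, at 10.4 and 5.62 against 15.2 and 20.1 CPM (-1.12 ± 0.23, 2.17-fold, adjusted p = 0.00013). Cxcr4 was higher, at 1.96 and 4.62 against 0.416 and 1.51 CPM (1.82 ± 0.44, 3.53-fold, adjusted p = 0.000954), a call that was lost without Pgc1b flox Cre KLA replicate 2 (1.10, adjusted p = 0.0857). The genotypes did not overlap for Ccr1, Cx3cr1 and Cxcr4, again without the share of all genes beside it. Ccr2, at 5.32 and 5.12 CPM, and Ccrl2, at 532 and 531 CPM, did not pass the test (-0.17 ± 0.27 and 0.07 ± 0.07). Ccr7 had 2 and 3 counts with Cre against 13 and 8 without it and was not tested. The 8 macrophage markers summed to 10941 to 11055 CPM in Pgc1b flox Cre KLA against 16289 to 16376 CPM in Pgc1b flox KLA. Of these, Adgre1, Mertk, Fcgr1 and Lyz2, the gene that carries LysM-Cre, were called lower. Pecam1 and Cdh5 were called lower as well, and Col1a2 higher. The part of these markers in the receptor differences was not tested. The calls were 1 higher and 2 lower of 5, against 13.2% and 12.9% of genes, and with total gene counts the share of called genes that were higher went from 50.6% to 68.2%, with a median shift of 0.20.

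Under vehicle edgeR called none of the 5 receptors with Cre, where 0.164% of genes were called higher and 0.139% lower. Cx3cr1 stood at 9.52 and 9.15 CPM with Cre and at 18.1 and 13.4 CPM without it (log2 -0.75 ± 0.21, adjusted p = 0.0957), with no overlap, and was called without Pgc1b flox Veh replicate 2 (-0.95, adjusted p = 0.0369). Its interaction with KLA was not called (-0.37, adjusted p = 0.40), so the vehicle and KLA differences of Cx3cr1 were not shown to differ. Of the 5 receptors 3 had an unadjusted p below 0.05, and DESeq2 called 0. The interaction of Cre and KLA was called for Ccr1 (-1.31 ± 0.12, adjusted p = 9.8e-11) and Cxcr4 (1.73 ± 0.46, adjusted p = 0.00349), 2 receptors where 22.8% of genes were called. DESeq2 called 1 of them: the Cxcr4 term missed the threshold there (1.71, adjusted p = 0.125), as it did without Pgc1b flox KLA replicate 1 (1.03) or Pgc1b flox Cre KLA replicate 2 (1.00). The positive share of called terms went from 50.8% to 72.2% with total gene counts. Lyz2, the gene that carries LysM-Cre, was called lower in the Cre libraries under vehicle and under KLA. The study also ran an immunoblot of PGC1β protein in macrophages of these genotypes, which is not part of these data. Since Ppargc1b RNA was not lower in the Cre libraries, the receptor differences are given as differences between the libraries labelled with and without LysMCre.

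The ligands of the 6 receptors formed a list of 12 genes. KLA raised 7 of the 10 tested in the NCoR table and lowered 2, with a median log2 change of 5.21 where the median of all genes was -0.14 and 25.4% of them were called higher and 32.3% lower. The largest rises were Ccl12 (11.28) and the Ccr1 ligand Ccl5 (8.47), and Cxcl12, the ligand of Cxcr4, fell from 8.47 to 0.167 CPM (-5.60). The collagen genes given above fell in the same libraries. In the TBK1i table Cxcl12 was not called with KLA (-0.56, adjusted p = 0.0669), and in the RGFP966 and Pgc1b tables it had at most 4 counts and was not tested. Poly I:C raised 7 ligands and lowered 1, the Ccr1 ligand Ccl6 (-0.87), against 22.2% and 25% of all genes. IL4 raised 5, led by the Ccr2 ligands Ccl7 (3.88) and Ccl2 (2.22), and lowered Ccl5, against 6.63% and 6.46% of all genes, while it lowered Ccr2. Ccl6 and Ccl9, which act on Ccr1, were higher in NKO cells under vehicle, poly I:C, IFNβ, IL4 and RANKL, as was Ccr1. Ccl6 stood at 381 CPM in NKO Veh and 84.9 CPM in WT Veh (2.17 ± 0.12). Under KLA NKO cells had more of the Ccr2 ligands Ccl2 (2.45) and Ccl7 (2.23) and less Cx3cl1 (-1.99) and Ccl3 (-1.52). RGFP966 raised 2 ligands, Ccl6 (1.28) and Ccl9 (0.93), and lowered 4 of 9, with Cx3cl1 at -2.92 and Ccl12 at -2.69, against 15.8% and 9.54% of genes. TBK1i lowered 6 of 10 and raised none (median -2.25, against 18.3% of genes called lower and 15% higher), with Ccl12 at -7.35 and Ccl7 at -5.72. In the Pgc1b KLA groups 3 of 9 were lower with Cre, among them Ccl12 (-2.40) and Ccl5 (-1.70), against 12.9% of genes.

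A list of 19 other chemokine receptors had 7 to 12 genes tested per table. Cmklr1, the signalling receptor for chemerin, rose with KLA in the RGFP966 (1.22), Pgc1b (2.66) and TBK1i (2.24) tables and fell in the NCoR table (-1.16). Cxcr3 fell with KLA in the NCoR table (-4.25). Of 12 tested, 4 were called higher and 3 lower for KLA in the NCoR table, against 25.4% and 32.3% of all genes. The same counts were 4 and 3 for poly I:C, against 22.2% and 25%, and 5 and 3 for RANKL, against 24.1% and 19.8%. IFNβ gave 0 and 1, against 4.09% and 2.37%, and IL4 gave 1 and 4, against 6.63% and 6.46%. For NKO against WT they were 0 and 2 under vehicle, against 2.4% and 3.8%, and 3 and 1 under KLA, against 21% and 19%. Of 8 tested, 4 were higher and 1 lower with RGFP966, against 15.8% and 9.54%, and 0 and 3 with TBK1i, against 15% and 18.3%.

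Of 21 genes of receptor signalling and desensitization, all tested in every table, 9 rose and 8 fell with KLA in the NCoR table (median 0.41), or 42.9% and 38.1% of the list against 25.4% and 32.3% of all genes. Arrb1, which encodes a β-arrestin that uncouples receptors from G proteins, fell from 272 to 12.6 CPM (log2 -4.43 ± 0.10), and it fell with poly I:C (-3.26). The receptor kinase gene Grk3 rose with KLA (2.31). Rgs16 (4.31) and Rgs1 (3.37), which encode proteins that shorten G protein signals, rose with poly I:C. In the presence of KLA, Arrb1 was higher with RGFP966 (2.24), with TBK1i (3.46) and with Cre in the Pgc1b table (1.71) than in the matching KLA controls. Rgs2 was lower with TBK1i (-4.69) and higher in NKO than WT cells under KLA (2.14). Counts called higher and lower of the 21 were 7 and 7 for poly I:C, 3 and 5 for RANKL, 0 and 2 for IFNβ, 1 and 8 for IL4, 0 and 3 for NKO Veh, 4 and 3 for NKO KLA, 5 and 2 for RGFP966 and 3 and 5 for TBK1i, each to be read against the shares of all genes just given for the same contrast. Grk3 was lower in NKO than in WT cells under all 6 conditions, as named among the falls of each contrast.

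The genes near Ccrl2 and near Ccr1 and Ccr2 on chromosome 9 were listed by position. Of 17 genes within 250 kb of Ccrl2, 8 were tested in the NCoR table. Ccrl2 was the only one called higher in WT KLA cells, while Als2cl (-2.44), Ltf (-6.08), Prss46 (-1.47) and Epm2aip1 (-1.07) were among those called lower. Over all genes 25.4% were called higher and 32.3% lower. Ltf is one of the neutrophil markers, which together summed to 1.71 to 3.99 CPM in WT Veh, so its value rests on low counts. In the TBK1i table Ltf was not called (1.17, adjusted p = 0.176). In the TBK1i table the neighbour Lrrfip2 was called higher with KLA as well (0.77). Near Ccr1 and Ccr2, 10 of 12 genes were tested in the NCoR table. With KLA, Ccr1, Ccr3 (1.27), Lztfl1 (3.63), Ccr9 (3.89) and Xcr1 (5.20) were called higher, 2010315B03Rik (-0.97) was called lower and Ccr2 was not called. Ccr3 was called higher in the Pgc1b (1.06) and TBK1i (1.59) tables too and was not called in the RGFP966 table (0.13, adjusted p = 0.295). With poly I:C, Ccr1, Ccr3 (-1.30), Ccr1l1 (-2.01) and 2010315B03Rik (-0.60) were called lower and Lztfl1 (1.78), Ccr9 (2.34) and Xcr1 (4.52) higher. The calls near Ccr1 and Ccr2 stand against the shares of all genes given for KLA above, and for poly I:C against 22.2% higher and 25% lower. Counts were low for Ccr9, Xcr1 and Ccr1l1, with at most 34, 144 and 25 counts in any NCoR library.

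For each receptor the genes of most similar pattern were found by the correlation of group means of log2(CPM + 1), with each table centred on its own mean, over 22 groups and 9670 genes. Fblim1, Sox4 and Zfp395 followed Cxcr4 most closely (r = 0.99, 0.99 and 0.98), and Mfsd7a, Cd200 and Adgrg6 followed Ccrl2 (r = 0.98 each). For the other receptors the likeness was weaker or rested on fewer groups. The genes closest to Ccr1 were Itgam, Atp6v0e and Cd109 (r = 0.83, 0.80 and 0.80), to Ccr2 Zranb3, Olfml3 and Mipep (0.84, 0.82 and 0.81) and to Cx3cr1 B4galt6, Ugt1a6a and Ugt1a6b (0.82, 0.80 and 0.79), the last pair being overlapping transcripts of 1 locus. Ccr7 was followed by Rpl8, Slc25a3 and Snx22 (0.97, 0.96 and 0.95), and without the NKO KLA group these values were 0.93, 0.91 and 0.91. Among the receptors themselves, Ccrl2 and Cxcr4 ran opposite to each other (r = -0.83) and Ccr2 ran with Cx3cr1 (r = 0.70). The values at each point come from the same libraries with the same depth, and no test was made of these correlations.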

How the data were processed

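Poly(A) RNA of mouse bone marrow-derived macrophages was sequenced in 44 libraries, 2 per group. The deposited values are raw read counts per gene: per the labels and the study's methods, the authors aligned reads to mm10 with STAR and counted reads over exons with HOMER, keeping 1 transcript per gene. The HOMER command in the headers names no strand option, although the methods speak of strand-specific reads. No other columns with sample values were found (0 unused), and the tables hold no comparisons of the authors.

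Groups came from the labels. Each table was fitted separately with edgeR 4.0.16 (limma 3.58.1, R 4.3.3): TMM scaling, filterByExpr, and the quasi-likelihood test with group as the only term, which shares the spread over all groups of a table. P-values are 2-sided and Benjamini-Hochberg adjusted over 13407, 12196, 12205 and 12332 genes in the NCoR, RGFP966, Pgc1b and TBK1i tables, and a gene was called when that value was under 0.05 and the fold exceeded 1.5. SE is the absolute log2 change over the square root of the F statistic. CPM use TMM-scaled library sizes, and RPKM the transcript length in the tables. The depth of 8323493 to 16783155 gene counts per library puts the floor of 3 counts near 0.206 CPM (WT Veh). Floors cover counting error only, while SE takes in the fitted spread between libraries and SD the spread over the 2 libraries of a group.

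The members, gene lists and tests were chosen with earlier results of these data known. Named genes were the 6 members, the 3 genes most correlated with each (mean of at least 5 CPM), the 2 largest called rises and falls of each list per contrast (at least 5 CPM in a compared group), and the genes within 250 kb of Ccr1, Ccr2 and Ccrl2; some of these are counted but not reported by name here. Alternatives were other scalings, filters, DESeq2 1.42.0, a replicate block, fits of the compared groups alone, no fold threshold and leaving out each library. The steps were tested on simulated data, and figures were drawn with matplotlib 3.10.9. The libraries of every group differed beyond sampling noise.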

Additional observations from a re-analysis of the deposited data

Results flagged for a closer look

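The responses of 5 receptors differed between libraries of the genotypes by an interaction term, given here on the log2 scale with the difference under vehicle taken off (edgeR's quasi-likelihood test, Benjamini-Hochberg adjusted). Between NKO and WT cells the terms with KLA were 3.77 for Ccr2, -1.23 for Ccrl2 and -1.19 for Cxcr4, where genotype, name date and sex cannot be told apart and 36.9% of all genes were called. With RANKL they were 1.39 for Ccr2 and -0.62 for Cxcr4, against 14.2%, where agent, time, date and culture cannot be told apart. With poly I:C they were 1.16 for Ccr1, -0.94 for Ccrl2, 2.05 for Cx3cr1 and 0.69 for Cxcr4, against 3.24%. Between Pgc1b flox cells with and without LysMCre the terms with KLA were -1.31 for Ccr1 and 1.73 for Cxcr4, against 22.8%, and Ppargc1b RNA was not lower in the Cre libraries. Under some alternatives the calls were lost for Cxcr4 in all 4 of these interactions, Ccr2 with RANKL and Ccr1 with poly I:C. Each group has 2 libraries, too few to test any library as standing apart from its group.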

How the results depend on the processing

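Of 1815 alternative values of the receptors' fold changes, Ccr7 included, 1728 kept their call or stayed uncalled, 47 lost the call and 35 gained it. Another 5 turned direction and were called in either setting. Values that stayed uncalled are among the 1728 whatever their direction, so changes of sign without a call are not counted as turned. The cause was not tested. NKO KLA against WT KLA turned with another KLA control: Ccrl2 to 0.97 (RGFP966 table) and 1.17 (Pgc1b flox KLA), Cx3cr1 to 1.59 (RGFP966 table) and Cxcr4 to 0.078 (Pgc1b flox KLA). Ccr1 in Pgc1b flox KLA turned to -0.11 with total gene counts, a setting chosen after seeing the data.

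The counts of receptors called in this paragraph include Ccr7, so they are not the counts without Ccr7 given with each contrast. For IFNβ they changed from 1 to 3 without the fold threshold (0 to 2 without single libraries). For NKO under RANKL they went from 3 to 5 without the fold threshold and to 1 with only the compared groups, and under poly I:C from 3 to 1 to 2 without single libraries. Interaction counts without single libraries were 2 to 5 for KLA, 1 to 3 for RANKL, 2 to 4 for poly I:C, 0 to 2 for IFNβ and 1 to 2 for Pgc1b. The RANKL interaction had 1 with only the compared groups. The IFNβ interaction went from 0 to 2 without the filter and to 1 with DESeq2 or only the compared groups. RGFP966 had 2 to 4 without single libraries. Pgc1b Cre under vehicle had 1 without the filter, with only the compared groups, and 0 to 1 without single libraries. The Pgc1b interaction had 1 with DESeq2, and its fit already held only the compared groups.

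Counts over all genes moved by more than 1.5 times mainly without the fold threshold, the largest being from 867 to 3402 for IFNβ, from 568 to 2299 for NKO under IL4 and from 81 to 484 for the IL4 interaction. They also rose from 5873 to 9236 for RANKL, 1755 to 4258 for IL4, 832 to 2690 for NKO Veh, 5367 to 8062 for NKO KLA, 1770 to 4594 for NKO RANKL, 795 to 2675 for NKO PolyIC, 510 to 1806 for NKO IFNb, 3097 to 6214 for RGFP966, 37 to 90 for Pgc1b Cre under vehicle, 3182 to 5184 under KLA and 4112 to 7136 for TBK1i, and for interactions from 1908 to 3827 (RANKL), 434 to 1325 (poly I:C) and 81 to 270 (IFNβ). The IFNβ interaction had 31 with only the compared groups and 36 to 256 without single libraries, the IL4 interaction 280 without WT Veh replicate 1, and Pgc1b Cre under vehicle 22 without Pgc1b flox Veh replicate 1.

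Equal replicate numbers did not pair the libraries: none of 66 pairs of the NCoR table passed a correlation of 0.1 (-0.0596 to 0.0591), nor any of 3, 6 and 3 pairs elsewhere. With the replicate block the IFNβ interaction called 1 receptor (Ccr1, adjusted p = 0.0483), and Ccr2 in NKO Veh (adjusted p = 0.0529) and Cx3cr1 in NKO PolyIC (adjusted p = 0.11) lost their calls. It changed no other call of the receptors. Low counts limit Ccr7 outside NKO KLA and Cxcr4 under KLA.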
